A study of Xenopus laevis with 12 samples.

Results

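The growth of malformed faces was followed in tadpoles of the African clawed frog, Xenopus laevis, that had been exposed to thioridazine as embryos. RNA was sequenced from the whole head. The comparison sets the 3 libraries titled thioridazine NF stage 47 against the 3 titled thioridazine NF stage 45, which are 6 of the 12 libraries of the series. They were chosen by those titles alone. Thioridazine is a phenothiazine antipsychotic drug, and the study used it to disturb the face. Embryos were reared at 14 °C, held with 90 µM thioridazine at 18 °C while they passed through the neurula period (NF stages 14 to 26, in the staging of Nieuwkoop and Faber) and then returned to 14 °C until they fed as tadpoles. The 3 control libraries at stage 47 and the 3 at stage 45 came from heads of wild-type tadpoles held at 18 °C over the same window. These libraries serve here to show where growth with a malformed face differs from growth without one.

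A tadpole of these stages has a larval skin, a cartilaginous skull built mainly by cranial neural crest cells, working jaw muscles and eyes, and it starts to feed. Bone comes later in this species. Face shape is set by transcription factors of the crest-derived and neighbouring mesenchyme, and the connective tissue around the cartilage is laid down and remodelled by collagens, small proteoglycans and metalloproteinases while the head enlarges. Growth in the larva is followed by metamorphosis, when thyroid hormone replaces many larval tissues, the skin among them.

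The treated libraries held between 12261034 and 16239193 counts, and all 12 held between 11998636 and 16933777. Of 37018 genes in the files, 27050 had enough counts to be tested. Levels are given as CPM, counts scaled to a common library size after TMM normalization, fold changes are stage 47 over stage 45, and a gene is called to rise or fall where the adjusted p of edgeR's quasi-likelihood test lies under 0.05. The labels call the replicates biological without naming clutches or numbers of animals, and p-values then reflect only how far these samples spread, which may be technical. Markers of cartilage, muscle, retina, lens, neurons, pigment cells and skin were present in all 6 treated libraries. Heart genes (myh6, nppa) were present in all 6 as well, and liver genes at levels that varied among libraries. The pancreatic protease prss1.L was at 0 in all 6. Other pancreas and gut markers had low counts in all 6. Before TMM scaling, cpa1.S of the pancreas stood at 0.325 to 0.88 CPM and cpa1.L at 0.0695 to 0.243 CPM. The gut gene fabp2.L stood at 0.0616 to 0.66 CPM, and fabp2.S was at 0 in 4 of the 6. In whole heads, fewer cells of a type and less RNA per cell cannot be told apart. Names of genes were read from the RefSeq gene table for Xenopus_laevis_v10.1; the endings .L and .S mark the copies of a gene left by the genome duplication of this species.

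Between stage 45 and stage 47, some genes of the larval skin, fibrous connective tissue, immediate early response, complement and lysosome rose in treated heads. Those that fell included genes of facial mesenchyme identity, cell division, nucleolus and RNA processing. The test called 1314 genes, of which 565 rose and 749 fell, which is 4.86% of the genes tested (2.09% rising and 2.77% falling). Most changes were modest. The median called rise was 1.67-fold, the median called fall was 1.44-fold, and 187 called genes changed at least 2-fold, of which 159 rose and 28 fell. The 3 and 3 libraries did not overlap in 1312 of the 1314, against 25.2% of all genes tested. A call nearly requires such a separation, so this adds no support to the calls. The share of rises among the calls was 43% and became 55.6% (794 of 1429) under upper-quartile scaling. The number of calls leaned on every library. It was 392, 442 and 506 without replicates 1, 2 and 3 of stage 47, and 671, 748 and 428 without replicates 1, 2 and 3 of stage 45. Where a gene is said below to hold, it also passed in all 6 of these fits.

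**Figure D1:**
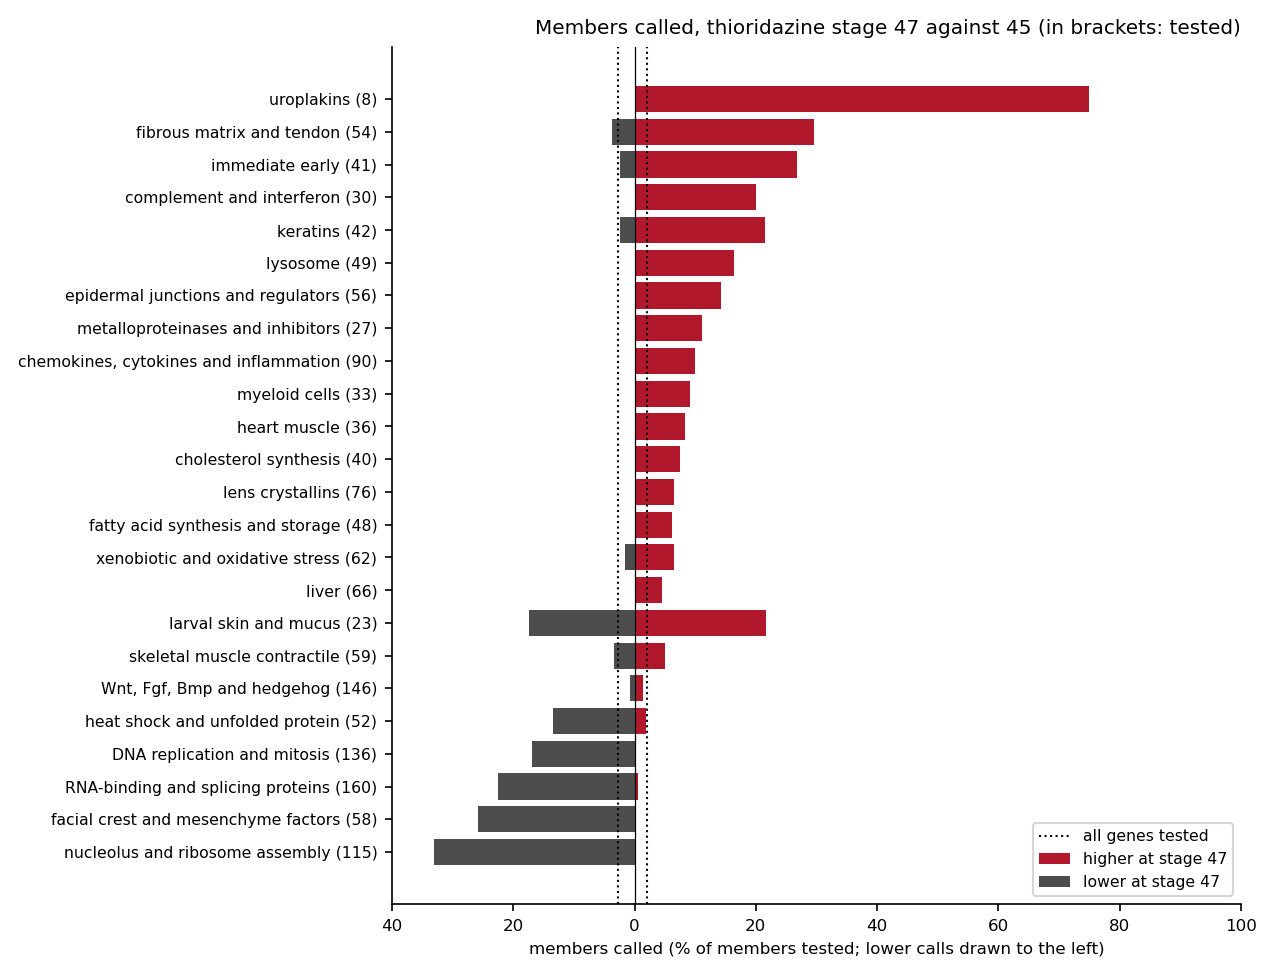
Percent of the tested members of each gene list that were called in thioridazine heads at stage 47 against stage 45, with rises drawn to the right and falls to the left; dotted lines mark the percentages over all genes tested (2.09 and 2.77). The 24 lists with at least 3 called members are shown, with the number of members tested in brackets; the lists of facial mesenchyme, cell division and nucleolus extend to the left alone.

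The larval skin showed large changes in both directions. Of 23 tested genes of larval skin and mucus, 5 rose and 4 fell, of 42 keratins 9 rose and 1 fell, and of 56 genes of epidermal junctions and their regulators 8 rose and none fell (median log2 fold changes 0.21, 0.20 and 0.25, against -0.01 over all genes tested). Without a single treated library the 3 lists had 5 to 9, 4 to 6 and 3 to 9 calls. Ouro1 and ouro2 are keratin-related larval skin antigens, known as targets of the adult immune system when the frog rejects its tail. ouro2.L stood at 110, 112 and 82.1 CPM in treated heads at stage 47, against 11.5, 18.3 and 8.91 CPM at stage 45. Every stage 47 library lay several times above every stage 45 library, and the log2 fold change was 2.98 (SE 0.37, adjusted p = 0.00366). ouro1.S measured 103, 115 and 86.5 CPM at stage 47 and 13.2, 19.3 and 15 CPM at stage 45, a rise of 2.68 on the log2 scale (SE 0.24, adjusted p = 0.000474). Its groups were as far apart as those of ouro2.L, and its scarcer copy ouro1.L rose as well, by 2.31 on the log2 scale. All 3 hold.

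The keratin krt78.1.L had 78.8, 71.0 and 79.3 CPM at stage 47, against 21.5, 27.7 and 25.3 CPM at stage 45. The libraries of a stage lay close together, and its adjusted p of 0.000185 (log2 fold change 1.62, SE 0.14) came with no overlap. Other keratins that rose included krt23.S (1.03), krt62.L (0.64, adjusted p = 0.0191, and 0.0921 without replicate 3 of stage 45) and krt15.2.L (0.58 on the log2 scale). krt15.2.L was among the more abundant, at 542, 586 and 570 CPM at stage 47 against 397, 378 and 358 CPM at stage 45. In the other direction went krt12.4.S, a keratin used in Xenopus as a marker of embryonic epidermis, with 17.9, 4.87 and 5.68 CPM at stage 47 and 110, 131 and 48.5 CPM at stage 45. All stage 47 libraries were low, although they varied among themselves. Its log2 fold change was -3.31 (SE 0.54, adjusted p = 0.0135, and 0.0508 without replicate 3 of stage 47). The adjusted p was 0.0971 in a fit of the treated groups alone, and with homeologs summed the log2 fold change was -1.61 (adjusted p = 0.234). Near-identical keratin copies can share reads, which leaves the level of a single copy uncertain.

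Of the 4 genes of the skin list that fell, 3 encode proteases. The serine protease xepsin.S was at 0.945, 0.672 and 1.44 CPM at stage 47, against 6.82, 5.85 and 6.39 CPM at stage 45, so it was low in all stage 47 libraries (log2 fold change -2.64, SE 0.34, adjusted p = 0.00161). The astacin-like protease astl3b.1.L had 1 count over the 3 libraries of stage 47 and 58 counts over those of stage 45. The ratio of stage 45 to stage 47 was 49.8, with a 95% exact interval of 8.60 to 2002 that covers counting error only. Its adjusted p was 0.0125, and 0.068 without replicate 1 of stage 47, with the call kept in 4 of the 6 fits without a library. A second astacin, astl2e.2.L, fell by 2.77 on the log2 scale at levels near 1 CPM, with an adjusted p of 0.0311 that became 0.126 without replicate 1 of stage 47. Mucus genes moved both ways. The mucin muc1.S rose by 0.91 on the log2 scale (adjusted p = 0.00342) and agr2.L, a protein of mucus-secreting cells, by 0.81 (adjusted p = 0.0216, and 0.101 without replicate 3 of stage 45). The mucin muc2l.L fell by 0.51 (adjusted p = 0.049, and 0.174 without replicate 2 of stage 45).

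Some genes of cell junctions and the skin barrier rose as well. The epithelial transcription factor elf3.S had 141, 109 and 109 CPM at stage 47, against 63.8, 75.2 and 74.5 CPM at stage 45. The stages were well apart (0.75 on the log2 scale, SE 0.12, adjusted p = 0.00494), and its copy elf3.L showed 0.52 without passing (adjusted p = 0.0544). The tight junction protein cldn1.L measured 298, 275 and 269 CPM at stage 47 and 190, 175 and 192 CPM at stage 45 (adjusted p = 0.00577). The desmosome protein plakophilin 1 (pkp1.S) had 37 counts over the stage 47 libraries and 0 over those of stage 45. Its stage 47 level was 14.4 times the stage 45 floor when 3 counts over the group are taken as that floor. This ratio leaves out the counting error of the 37 counts and the spread among libraries. With the counts of its 2 copies summed, the log2 fold change of pkp1 was 0.92 and did not pass (adjusted p = 0.109). The hemidesmosomal collagen col17a1.L and the grainyhead factors grhl2.L and grhl3.L, regulators of epithelial barriers, rose by 0.67, 0.51 and 0.50 on the log2 scale, with adjusted p of up to 0.163 (grhl2.L without replicate 1 of stage 45). Of 8 uroplakins, membrane proteins of epithelial surfaces that were taken up after their values had been seen, all were higher and 6 were called, among them upk2.S with 70.6, 79.9 and 80.3 CPM at stage 47 against 42.5, 46.5 and 46.4 CPM at stage 45. Without a single treated library between 0 and 3 uroplakins were called, and upk2 did not pass with its copies summed (0.31, adjusted p = 0.239). thdl17.L, named as a gene that thyroid hormone turns down in tadpoles, stood at 331, 382 and 401 CPM at stage 47 and 69.5, 120 and 127 CPM at stage 45. Its groups did not overlap (log2 fold change 1.81, SE 0.26, adjusted p = 0.00439), and it holds, while thdl18.S rose by 0.65 with an adjusted p of 0.0416 that was lost without each of the 6 libraries in turn (up to 0.147 without replicate 1 of stage 45).

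**Figure D2:**
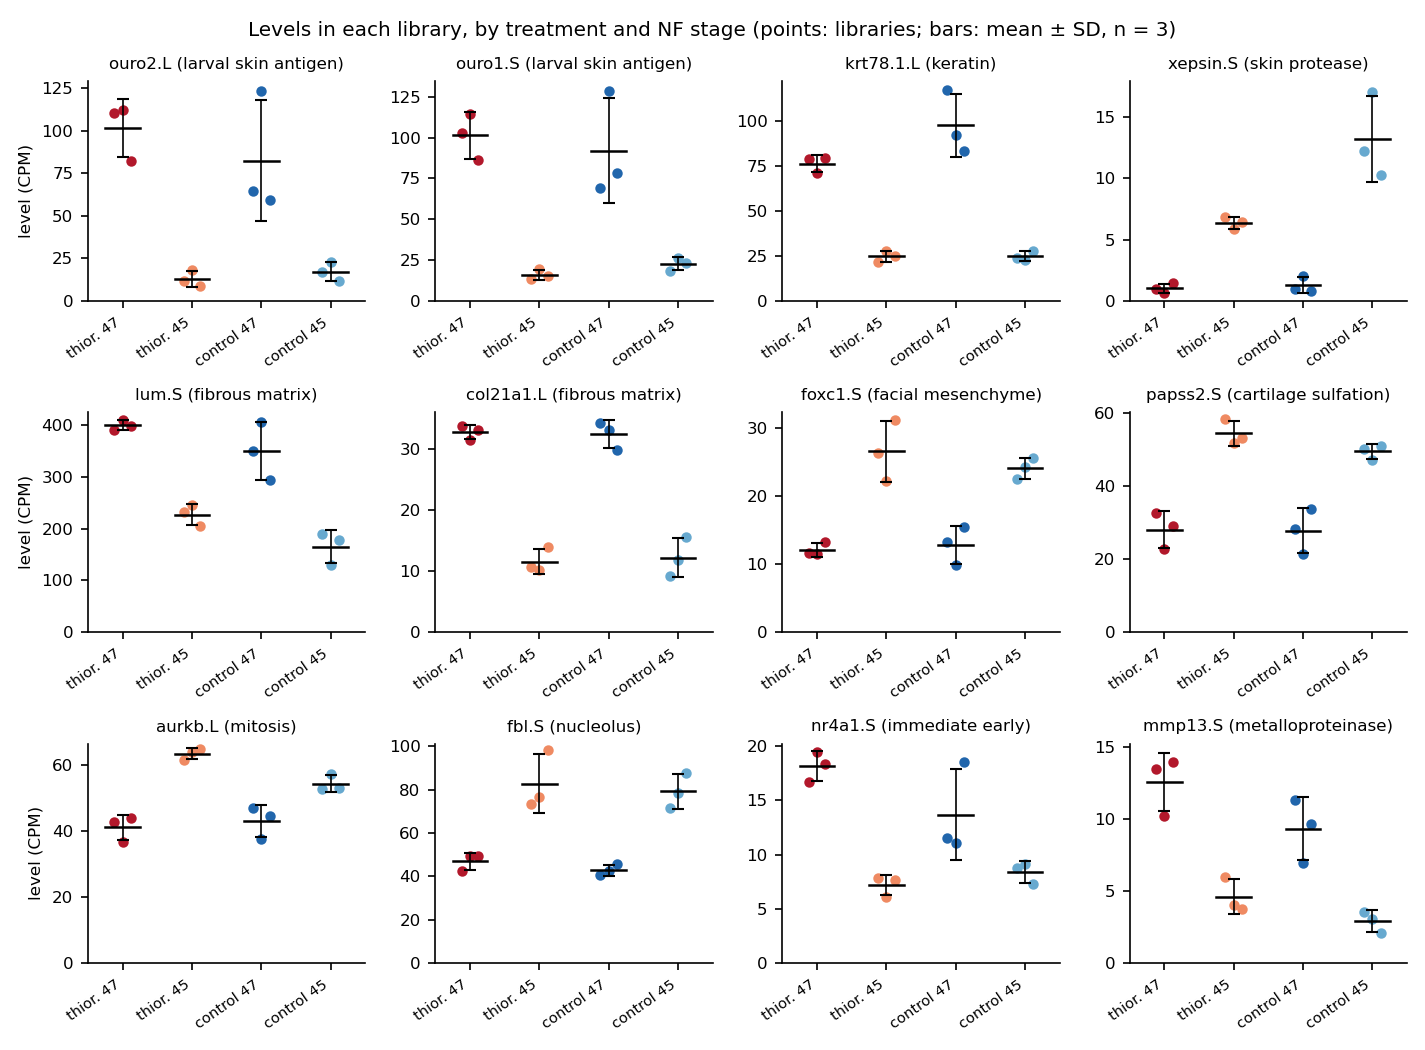
Level in CPM (linear axes from 0) of 12 genes in each library, for thioridazine heads at stages 47 and 45 and control heads at stages 47 and 45; points are libraries and bars the mean ± SD of 3. In all 12 panels the thioridazine libraries of the stages do not overlap, and the control means differ between stages in the same direction.

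Of 54 tested genes of fibrous matrix and tendon, 16 rose and 2 fell (median log2 fold change 0.34), and the list as a whole summed to 14119, 16227 and 15352 CPM at stage 47 against 10326, 13398 and 10831 CPM at stage 45. Without replicates 1, 2 and 3 of stage 47 the list had 6, 4 and 8 calls, and without those of stage 45 it had 8, 18 and 6. Lumican and decorin, small proteoglycans that organise collagen fibrils, were abundant and rose. lum.S had 391, 410 and 397 CPM at stage 47, against 231, 245 and 204 CPM at stage 45, and dcn.S had 337, 316 and 313 CPM at stage 47, against 187, 207 and 192 CPM at stage 45. Both were clearly apart between stages (log2 fold changes 0.82 with SE 0.15 and 0.72 with SE 0.13, adjusted p = 0.00799 and 0.00656) and both hold. The copies lum.L and dcn.L rose too, by 0.84 and 0.49, though they lost the call without single libraries (up to 0.094 without replicate 1 of stage 47 and 0.137 without replicate 3 of stage 45). Among fibre-forming collagens, col1a2.S (0.74), col3a1.L (0.52) and col5a2.S (0.49) were called, with adjusted p of up to 0.152 (col3a1.L without replicate 2 of stage 47). The main bone and skin collagen chain col1a1 was higher without passing, at 1607, 2081 and 1874 CPM at stage 47 and 1206, 1866 and 1261 CPM at stage 45 for the L copy (log2 fold change 0.36, adjusted p = 0.29). One stage 45 library lay within the range of stage 47 there. The S copy of col1a1 gave 0.41 with an adjusted p of 0.27.

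The fibril-associated collagen col21a1.L, which was in no list and was chosen after its values were seen, rose and was even within each stage. It stood at 33.8, 31.5 and 33.2 CPM at stage 47, against 10.6, 10.1 and 14.0 CPM at stage 45 (log2 fold change 1.5, SE 0.17, adjusted p = 0.00076). The matrix glycoprotein tenascin N (tnn.L) measured 4.25, 3.44 and 4.49 CPM at stage 47 and 0.773, 1.04 and 0.861 CPM at stage 45. It was low at stage 45 throughout and rose 4.52-fold (adjusted p = 0.00431). The tendon and ligament gene tenomodulin (tnmd.L) rose by 1.34 on the log2 scale and periostin (postn.L), a matricellular protein of connective tissue, by 0.66, with adjusted p of 0.0347 and 0.0215 that became 0.14 without replicate 3 and 0.0977 without replicate 2 of stage 47. The fibrous genes that fell were emilin1.L, an elastic fibre protein, with 190, 193 and 206 CPM at stage 47 against 302, 328 and 335 CPM at stage 45, and the tendon thrombospondin thbs4.S (log2 fold changes -0.71 and -0.77). Both hold, though thbs4 did not pass with its copies summed (-0.43, adjusted p = 0.0954).

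Matrix-degrading enzymes rose in part. Of 27 tested metalloproteinases and their inhibitors, 3 were called (11.1%, against 4.86% of all genes tested) and all 3 rose. The same number was called without each treated library. The collagenase mmp13.S had 13.5, 10.2 and 14.0 CPM at stage 47, against 5.97, 4.04 and 3.75 CPM at stage 45. The lowest stage 47 library stood above the highest of stage 45, and the log2 fold change was 1.46 (SE 0.24, adjusted p = 0.00571). A second collagenase, mmp8.L, measured 28.6, 30.1 and 26.6 CPM at stage 47 and 9.0, 7.87 and 12.5 CPM at stage 45 (1.53, SE 0.17, adjusted p = 0.00076). The stromelysin mmp3.L rose by 0.64 on the log2 scale.

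Cartilage matrix genes were mostly lower at stage 47 and few passed. Of 43 tested, 33 had a lower mean, 2 fell and none rose (median log2 fold change -0.34). The share called, 4.65%, was near the 4.86% over all genes tested. In control heads 6 of the 43 fell and none rose (median -0.43). papss2.S, an enzyme that makes the sulfate donor for cartilage proteoglycans, had 32.5, 22.6 and 28.9 CPM at stage 47, against 58.2, 51.7 and 53.1 CPM at stage 45. All stage 47 libraries were well below those of stage 45 (log2 fold change -0.95, SE 0.15, adjusted p = 0.00469), and the fall holds. The collagen chain col9a3.S measured 128, 105 and 122 CPM at stage 47 and 176, 171 and 194 CPM at stage 45, with an adjusted p of 0.0307 that no fit without a treated library kept (up to 0.122 without replicate 2 of stage 47). The chief cartilage collagen col2a1 was lower in every stage 47 library without passing, with 552, 518 and 674 CPM at stage 47 against 752, 896 and 823 CPM at stage 45 for the L copy (log2 fold change -0.50, SE 0.18, adjusted p = 0.13) and -0.51 for the S copy (adjusted p = 0.0725). The cartilage regulator sox9 gave -0.24 and -0.11 for its L and S copies (adjusted p = 0.499 and 0.688). Of 21 genes of hypertrophic cartilage and bone none was called, and both copies of col10a1, the collagen of hypertrophic cartilage, had too few counts to be tested. The gene of that list with the smallest p was the matrix protein sparc.L, at 1093, 1056 and 1034 CPM at stage 47 and 824.6, 732.8 and 852.1 CPM at stage 45 (adjusted p = 0.0709).

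Some transcription factors that mark the mesenchyme of the face fell. Of 58 tested, 15 fell and none rose, against 2.77% of all genes falling, and 44 had a lower mean (median log2 fold change -0.29). Without replicates 1, 2 and 3 of stage 47 there were 5, 4 and 7 calls, and without those of stage 45 there were 10, 12 and 4. The forkhead factor foxc1.S, needed for jaw and periocular mesenchyme in vertebrates, had 11.5, 11.4 and 13.2 CPM at stage 47, against 26.3, 22.2 and 31.2 CPM at stage 45. No library of one stage came near the other (log2 fold change -1.14, SE 0.16, adjusted p = 0.00338), and foxc1.L fell by 0.87 on the log2 scale. The forkhead factor foxf1.L measured 7.96, 7.39 and 6.87 CPM at stage 47 and 15.7, 13.8 and 16.4 CPM at stage 45 (log2 fold change -1.04, SE 0.13, adjusted p = 0.00147), and foxf1.S fell by 0.94. Of these, foxf1.S lost the call without replicate 3 of stage 45 (adjusted p = 0.0741) and the others hold.

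Both copies of twist1, a factor of cranial crest mesenchyme, and of barx1, a factor of the facial skeleton and jaw joint, were among the calls. twist1.S had 57.0, 55.2 and 59.9 CPM at stage 47, against 80.6, 80.0 and 85.2 CPM at stage 45, with tight values at each stage (log2 fold change -0.51, SE 0.10, adjusted p = 0.0113). barx1.S had 12.3, 12.1 and 12.6 CPM at stage 47, against 20.0, 19.9 and 25.1 CPM at stage 45 (-0.81, adjusted p = 0.0198). Others that fell were alx1.L of the frontonasal mesenchyme (-0.79), hand2.S of the ventral pharyngeal arches (-0.87), dlx5.S of the arches (-0.46), six2.L (-0.57), and the homeobox cofactors meis1.S and meis2.L (-0.76 and -0.42). Apart from meis1.S, which holds, the calls of these genes were lost without 1 or more libraries. The highest adjusted p was 0.162, for six2.L without replicate 3 of stage 45. Both copies of foxd1, a forkhead factor in no list and chosen after its values were seen, fell by 0.87 (L, adjusted p = 0.023, and 0.107 without replicate 3 of stage 45) and 0.84 (S, which holds).

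Cell division genes were lower nearly throughout. Of 136 tested genes of DNA replication and mitosis, 133 had a lower mean, 23 fell and none rose (median log2 fold change -0.34), and the list's sum was 3308, 3638 and 3826 CPM at stage 47 against 3945, 4969 and 4653 CPM at stage 45. Without replicates 1, 2 and 3 of stage 47 there were 2, 5 and 11 calls, and without those of stage 45 there were 17, 6 and 2. The mitotic kinase aurkb.L had 42.8, 36.8 and 44.0 CPM at stage 47, against 61.7, 64.0 and 64.9 CPM at stage 45, and the spindle motor kif11.S had 32.1, 37.4 and 37.0 CPM at stage 47, against 49.8, 61.2 and 59.0 CPM at stage 45. Both sets of libraries were separate (log2 fold changes -0.62 with SE 0.10 and -0.68 with SE 0.12, adjusted p = 0.0052 and 0.0076), and both hold. The cyclin genes ccne2.S, ccnb2.S and ccnb1.2.S fell by 0.95, 0.85 and 0.71 on the log2 scale and lost the call without replicate 1 of stage 47 (adjusted p = 0.0704, 0.109 and 0.0652). The proliferation marker mki67.S fell by 0.58 (adjusted p = 0.043, and 0.167 without replicate 1 of stage 47). The replication helicase was uneven. mcm7.L fell by 0.46 (adjusted p = 0.0242, and 0.113 without replicate 3 of stage 45), while mcm2 had log2 fold changes of -0.09 (L) and -0.03 (S) with adjusted p of 0.703 and 0.928. The S copy had 19.2, 21.6 and 23.7 CPM at stage 47 and 20.6, 21.8 and 23.6 CPM at stage 45.

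Some genes of the nucleolus, where ribosomes are assembled, fell. Of 115 tested genes of nucleolus and ribosome assembly, a list taken up after values had been seen, 38 fell and none rose, and 107 had a lower mean (median log2 fold change -0.39). Without a single treated library between 12 (without replicate 1 of stage 47) and 30 were called. Fibrillarin, the methyltransferase of ribosomal RNA, had 42.3, 49.2 and 49.2 CPM at stage 47, against 73.2, 76.7 and 98.4 CPM at stage 45, for fbl.S. All stage 47 libraries were below all of stage 45 (log2 fold change -0.82, SE 0.12, adjusted p = 0.00342), and fbl.L fell by 0.51 (adjusted p = 0.0213, and 0.0969 without replicate 3 of stage 45). The RNA helicase ddx27.L and the largest subunit of RNA polymerase I, polr1a.L, fell by 0.86 and 0.66 (adjusted p = 0.00325 and 0.0053). Treacle (tcof1.S), a nucleolar protein altered in a human syndrome of the face, had 26.1, 36.9 and 33.1 CPM at stage 47 and 46.1, 56.9 and 50.6 CPM at stage 45 (-0.68, adjusted p = 0.00903). Genes of the ribosome itself did not follow. None of 131 ribosomal protein genes was called and 118 had a higher mean (median log2 fold change 0.16). The one with the smallest p, rpl11.S, had an adjusted p of 0.121.

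RNA-binding and splicing proteins, also a list chosen after values were seen, fell in 36 of 160 and rose in 1 (median log2 fold change -0.28), with 7 to 21 calls without a single treated library. rbm14.S had 53.9, 53.1 and 56.4 CPM at stage 47, against 96.5, 103 and 108 CPM at stage 45, and fus.S had 148, 169 and 164 CPM at stage 47, against 258, 273 and 327 CPM at stage 45. Both lay apart from stage to stage in all libraries (log2 fold changes -0.91 and -0.83, adjusted p = 0.00076 and 0.00592). Another 2 genes, singled out after their values were seen, fell in both copies. The chromatin remodeller srcap fell by 0.94 (L) and 0.80 (S), and the largest subunit of RNA polymerase II (polr2a) by 0.71 and 0.80. All 4 hold. Among all 6985 pairs with both copies tested, 143 had both copies called and in every one of them both moved the same way. In 479 pairs a single copy was called, and the other had the same sign in 446. Near-identical copies can share reads, so this agreement adds no separate support to the calls. Of the mitochondrial chaperones, hspa9.L fell and had 70.3, 66.1 and 69.3 CPM at stage 47, against 105, 106 and 102 CPM at stage 45, and hspd1 fell by 0.62 (S) and 0.58 (L, adjusted p = 0.0264, and 0.11 without replicate 3 of stage 47). Of 52 genes of heat shock and unfolded protein responses 7 fell and 1 rose, the rise being the endoplasmic reticulum isomerase pdia4.L (0.54).

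Immediate early genes, which respond to stimuli within minutes and include fos, jun and nr4a1, were mostly higher at stage 47. Of 41 tested, 11 rose and 1 fell, and 36 had a higher mean (median log2 fold change 0.45). Without a single treated library there were 5 to 7 calls. The nuclear receptor nr4a1.S had 16.7, 19.5 and 18.4 CPM at stage 47, against 7.80, 6.13 and 7.62 CPM at stage 45, and the matricellular gene ccn1.S had 93.7, 108 and 93.8 CPM at stage 47, against 45.3, 38.0 and 42.1 CPM at stage 45. Both were even within a stage and distant between stages (log2 fold changes 1.34 with SE 0.19 and 1.24 with SE 0.18, adjusted p = 0.00342 and 0.00345). Both hold, as do nr4a1.L and ccn1.L. fos.L and fos.S rose by 1.38 and 1.27 with adjusted p of 0.0255 and 0.0462, and without replicate 2 of stage 47 these became 0.0929 and 0.146. The gene that fell was ier5.S (-0.55).

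Some genes of innate defence rose. Of 30 complement and interferon genes 6 rose, of 33 myeloid genes 3 rose, of 49 lysosome genes 8 rose, and none of these lists had a fall (median log2 fold changes 0.43, 0.49 and 0.22). Of 90 chemokine, cytokine and inflammation genes, a list chosen after values were seen, 9 rose and none fell (median 0.30). Without a single treated library these 4 lists had 2 to 4, 1 to 2, 1 to 4 and 2 to 5 calls. Complement factor D (cfd.L) had 39.7, 40.8 and 37.6 CPM at stage 47, against 22.4, 19.7 and 17.1 CPM at stage 45. The libraries of each stage lay close together and the stages far apart (log2 fold change 1.00, SE 0.15, adjusted p = 0.00342). The lectin pathway protease masp1.S rose by 1.25 (adjusted p = 0.00818), and complement factor B (cfb.L) by 0.82 (adjusted p = 0.0364, and 0.15 without replicate 1 of stage 47). The chemokine ccl5.L measured 13.6, 18.0 and 22.0 CPM at stage 47 and 4.36, 5.99 and 7.68 CPM at stage 45. It varied within each stage without overlap between them (log2 fold change 1.56, SE 0.24, adjusted p = 0.00416), and it holds. The cytokine tnf.S had 7.49, 9.24 and 10.3 CPM at stage 47, against 3.23, 4.46 and 4.06 CPM at stage 45 (adjusted p = 0.0128, and 0.0531 without replicate 3 of stage 47), and tnfaip3.S, which restrains its signalling, rose by 0.99 (adjusted p = 0.016, and 0.0699 without replicate 3 of stage 45).

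Among phagocyte genes, the oxidase subunits cyba.L and ncf1.L rose by 0.97 and 0.99 on the log2 scale, ncf1.L with an adjusted p of 0.029 that became 0.133 without replicate 1 of stage 47. cyba.L, which holds, had 7.22, 7.64 and 8.73 CPM at stage 47, against 4.08, 3.55 and 4.37 CPM at stage 45. The lysosomal protease ctsl.L had 83.4, 63.7 and 58.3 CPM at stage 47, against 23.4, 27.8 and 29.3 CPM at stage 45 (log2 fold change 1.35, adjusted p = 0.0173, and 0.0704 without replicate 1 of stage 47). Apolipoprotein E (apoe.L), in no list and chosen after its values were seen, stood at 114, 113 and 121 CPM at stage 47 and 56.7, 58.2 and 57.0 CPM at stage 45, nearly the same level in all libraries of a stage (1.02, SE 0.11, adjusted p = 0.00076). ch25h.L, an enzyme of oxysterol synthesis, had 5.0, 5.71 and 5.68 CPM at stage 47 and 2.25, 1.46 and 1.78 CPM at stage 45, and holds (1.57, adjusted p = 0.00592). None of 32 genes of lymphocytes and antigen presentation was called. The recombinase gene rag1.L had 0.54 to 0.756 CPM at stage 47 and 0.279 to 0.738 CPM at stage 45 (adjusted p = 0.684), and rag1.S had too few counts to be tested. The summed level of the 33 myeloid genes was 470.9, 375.8 and 357.4 CPM at stage 47 and 365.2, 270.7 and 293.6 CPM at stage 45, with an overlap between the stages. The part of a changed number of phagocytes in these rises was not tested.

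Few muscle genes were called. Of 59 skeletal muscle genes 3 rose and 2 fell (8.5% called, against 4.86% of all genes tested), with 2 calls in each fit without a treated library. The median log2 fold change of the list was 0.08, and its summed levels overlapped between stages. The myosin heavy chain myh8.L fell to 4.46, 3.27 and 3.22 CPM at stage 47, against 11.5, 15.9 and 8.73 CPM at stage 45. Every stage 47 library was low (log2 fold change -1.71, SE 0.29, adjusted p = 0.00656). The sarcomere protein tcap.S rose, with 112, 130 and 114 CPM at stage 47 against 74.3, 81.4 and 70.0 CPM at stage 45 (0.66, adjusted p = 0.00818), and the calcium pump atp2a1.L fell by 0.62 (adjusted p = 0.0356, 0.135 without replicate 1 of stage 47, and 0.083 with its copies summed). Of 36 heart genes 3 rose (8.33% called, against 4.86% of all genes tested). They were led by the slow and cardiac troponin tnnc1.L with 186, 194 and 166 CPM at stage 47 and 97.8, 110 and 95.2 CPM at stage 45 (0.85, adjusted p = 0.00464). Smooth muscle actin acta2 fell in both copies, by 1.2 (L) and 1.12 (S), though both calls were lost in each of the 6 fits without a library (up to 0.119 without replicate 1 of stage 45 for acta2.L and 0.11 without replicate 3 of stage 47 for acta2.S).

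In the nervous system and pituitary few genes were called. Myelin basic protein was higher without passing (0.61 with adjusted p = 0.051 for mbp.S and 0.48 with 0.201 for mbp.L). The microtubule protein mapt.L fell by 0.52 (adjusted p = 0.024, and 0.102 without replicate 1 of stage 47), and none of 77 neural and retinal progenitor genes was called. Thyroid hormone is handled by deiodinases. dio1.L had 22.2, 26.1 and 24.4 CPM at stage 47, against 6.54, 11.2 and 7.62 CPM at stage 45. Every stage 47 library stood well above every one of stage 45 (1.52, SE 0.24, adjusted p = 0.00464), and it holds. The activating enzyme dio2.L rose by 0.42 (adjusted p = 0.0301, lost without each library in turn, up to 0.11 without replicate 3 of stage 47). Of 28 pituitary and hormone-secretion genes 26 had a higher mean (27 in controls). Of these 28, 2 rose, scg2.L and chga.S of secretory granules (7.14% called, against 4.86% of all genes tested). Their adjusted p reached up to 0.146 in the fits without a library (scg2.L without replicate 3 of stage 45). The list summed to 939.8, 1062 and 1020 CPM at stage 47 and 791.6, 839.5 and 732.1 CPM at stage 45, without overlap.

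The summed level of liver genes differed more among the libraries of a stage than between stages. The 66 liver genes summed to 2869, 991 and 2432 CPM at stage 47 and to 2707, 1910 and 907.7 CPM at stage 45, and the stages overlapped. Fibrinogen (fgb.S) had 31.2, 0.504 and 30.9 CPM at stage 47 and 35.6, 13.9 and 0.369 CPM at stage 45, so 1 library of each stage had almost none. Of the list, 3 genes rose (4.55% called, near the 4.86% over all genes tested). They were both copies of tyrosine aminotransferase and hpd.L, enzymes that break down tyrosine. tat.L had 18.6, 17.9 and 18.1 CPM at stage 47, against 9.0, 5.78 and 5.78 CPM at stage 45, and hpd.L had 133, 109 and 120 CPM at stage 47, against 74.0, 66.7 and 79.4 CPM at stage 45. They did not follow fibrinogen across the libraries (log2 fold changes 1.41 and 0.72, adjusted p = 0.00116 and 0.0065), and both hold. The red cell membrane protein rhag.S rose 3.60-fold (4.59, 8.73 and 5.85 CPM at stage 47, against 1.97, 1.6 and 1.72 CPM at stage 45, adjusted p = 0.00901, and a log2 fold change of 0.58 with both copies summed), while the globin hba3.L, at 1531, 1881 and 2263 CPM at stage 47 and 1164, 1797 and 1027 CPM at stage 45, overlapped between stages (adjusted p = 0.3).

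Growth of treated heads and growth of control heads were then set side by side. The 2 comparisons share no library, but both come from the same fit and share its estimate of each gene's spread. Their calls are therefore not fully independent. In controls the same test called 1689 genes (6.24%), of which 820 rose (3.03%) and 869 fell (3.21%). Without single control libraries the number was 429, 443 and 1437 (replicates 1, 2 and 3 of stage 47 left out) and 861, 1392 and 735 (those of stage 45), and it was 660 in a fit of the control groups alone. Of the genes called in treated heads, 794 were also called in controls, 793 of them in the same direction, which is 60.4% of the treated and 47.0% of the control list. The sign was the same in controls for 1295 of the 1314. Across all genes tested, log2 fold changes in treated and control heads correlated with r = 0.591 and rho = 0.660, a description across genes, which are not independent replicates. The median log2 fold change among the treated calls, with the sign of the treated change turned to be positive, was 0.59 in treated and 0.51 in control heads. Choosing genes by their treated change favours a larger treated value, so no difference is read from these medians.

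**Figure D3:**
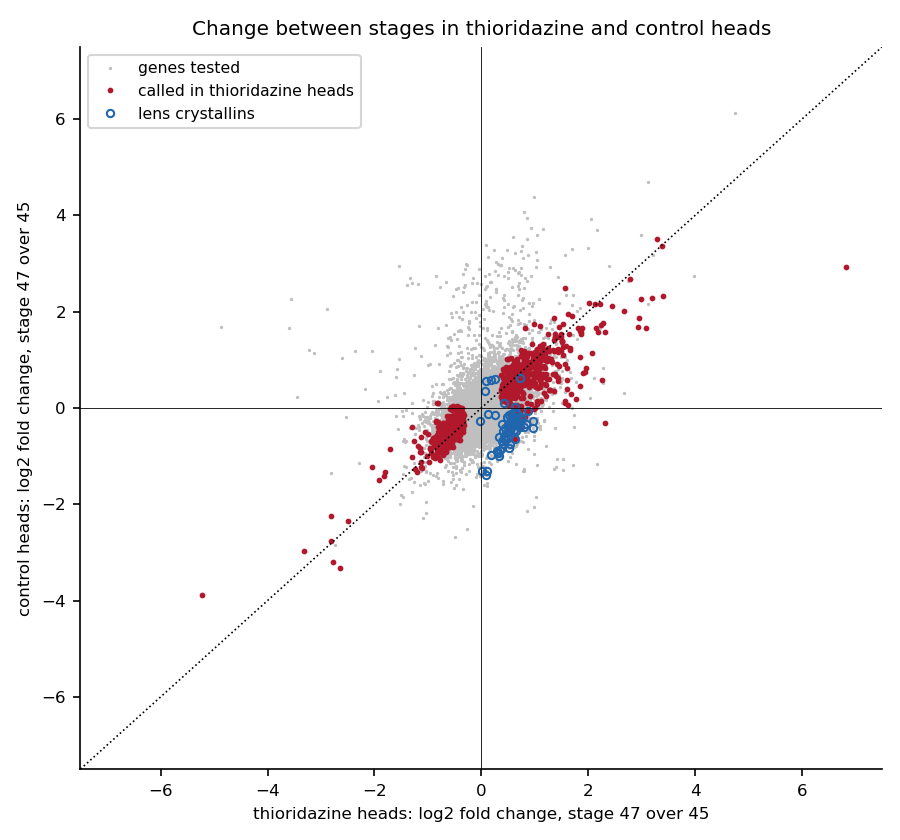
Log2 fold change from stage 45 to stage 47 of each gene tested in thioridazine heads (horizontal axis) and in control heads (vertical axis), with genes called in thioridazine heads in red and lens crystallins ringed in blue; the dotted line marks equal change. Of the 1314 called genes 1295 have the same sign in both, and the crystallins lie mostly to the right of 0 and below it.

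Whether growth itself differed was tested as the difference between the 2 changes. No gene passed with edgeR, and DESeq2 called 4. An unadjusted p under 0.05 in edgeR's test was found for 575 of 27050 (2.13%). That is fewer than the 1352 expected by chance at this threshold, and with the replicate number as a block the count was 942. A shortfall of this kind does not show that growth was alike in treated and control heads. The median SE of this difference was 0.25, against 0.18 for the change within treated heads, so the difference was measured less precisely. Of 56 epidermal junction genes 39 had a higher mean at stage 47 in treated and 52 in control heads. For ouro2.L the log2 fold change was 2.98 in treated and 2.27 in control heads, for krt78.1.L 1.62 and 1.96, and for xepsin.S -2.64 and -3.33. Values of the same sign in both were also found for foxc1.S (-1.14 and -0.91), fbl.S (-0.82 and -0.89), lum.S (0.82 and 1.08), col21a1.L (1.5 and 1.40), mmp13.S (1.46 and 1.69) and dio1.L (1.52 and 1.39). By list, 38 nucleolar genes fell in treated heads and 38 in controls, fibrous matrix had 16 rises in treated heads and 20 in controls, and facial mesenchyme factors had 15 falls in treated heads and 11 in controls. For cell division the calls were 23 in treated and 6 in control heads (medians -0.34 and -0.18). The 23 became 2 to 17 without a single treated library. Those fits hold fewer libraries than the fit behind the control count, so the range is not set against that count. Immediate early genes had 11 rises in treated and 3 in control heads (medians 0.45 and 0.28). None of the members of these lists passed for the difference.

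The 5 named genes with the smallest p for the difference did not pass (adjusted p = 1 for each) and 4 of them were lens crystallins. The fifth was complement C3 (c3.L), with 17.1, 14.8 and 16.2 CPM in treated heads at stage 47 and 13.6, 13.4 and 8.61 CPM at stage 45, against 25.1, 36.9 and 47.2 CPM in control heads at stage 47 and 5.46, 8.49 and 7.40 CPM in control heads at stage 45. Its log2 fold change was 0.43 in treated and 2.36 in control heads, and DESeq2 called the difference. The liver, a main source of C3, summed to 1.14 times the stage 45 level in treated heads and to 3.03 times in controls, where the list gave 10 rises. The part of liver tissue in the C3 values was not tested. Crystallins, the structural proteins of the lens, were higher at stage 47 in 75 of 76 in treated heads (median log2 fold change 0.52), where 5 rose. In controls they were lower in 69 of 76 (median -0.36), with 6 falls and 2 rises. Of the 76, 53 had an unadjusted p under 0.05 for the difference, against 2.13% of all genes. The copies are near-identical and can share reads, so they are not independent of each other.

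The crystallin crygdl.11.L had 87.8, 93.0 and 78.5 CPM in treated heads at stage 47 and 39.6, 51.8 and 49.3 CPM at stage 45, against 94.0, 64.2 and 75.7 CPM in control heads at stage 47 and 84.2, 92.2 and 67.4 CPM in control heads at stage 45. The treated stages were apart (log2 fold change 0.88, adjusted p = 0.00651), the control stages overlapped (-0.06), and the treated rise holds. crygbl.5.S measured 28.4, 33.8 and 27.0 CPM in treated heads at stage 47 and 19.3, 17.3 and 20.7 CPM at stage 45, against 29.8, 20.5 and 32.1 CPM in control heads at stage 47 and 46.2, 47.8 and 34.5 CPM in control heads at stage 45. It rose in treated heads (0.64, adjusted p = 0.0459) and fell in controls (-0.64, adjusted p = 0.0354), and DESeq2 called the difference, though no fit without a treated library kept the treated call (up to 0.16 without replicate 2 of stage 47). The 76 genes together summed to 9459, 10176 and 7400 CPM in treated heads at stage 47 and 6362, 7298 and 5545 CPM at stage 45, against 10307, 6730 and 7642 CPM in control heads at stage 47 and 12340, 14147 and 7871 CPM in control heads at stage 45. The control libraries overlapped between stages and were spread widely. Of the 76, 5 were called in treated heads (6.58%, against 4.86% of all genes tested). The number was 1 to 3 without a single treated library, 9 under upper-quartile scaling, 16 with DESeq2, 17 in a fit of the treated groups alone and 27 with the replicate number as a block. Genes of lens fibres other than crystallins were not called in treated heads (0 of 19), and in controls 6 of them fell. Their median log2 fold changes were 0.01 in treated and -0.63 in control heads. Of the 19, 9 had an unadjusted p under 0.05 in edgeR's test of the difference, against 2.13% of all genes, and none passed after adjustment. Like the crystallins they are lens genes read in the same libraries, so their count adds no separate support for a difference. In the retina, 1 of 64 phototransduction genes was called (1.56%, against 4.86% of all genes tested). It was the disc rim protein rom1.S, with 100, 101 and 102 CPM at stage 47 and 67.2, 69.4 and 54.2 CPM at stage 45 (0.66, adjusted p = 0.024, and 0.11 without replicate 3 of stage 45). The rod pigment rho did not pass (0.33 for rho.L and 0.04 for rho.S, adjusted p = 0.332 and 0.945). Of the 64 phototransduction genes, 45 had a higher mean at stage 47 in treated heads and 51 a lower mean in controls (medians 0.15 and -0.25). In edgeR's test of the difference, 10 of the 64 had an unadjusted p under 0.05, against 2.13% of all genes, and none passed after adjustment.

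**Figure D4:**
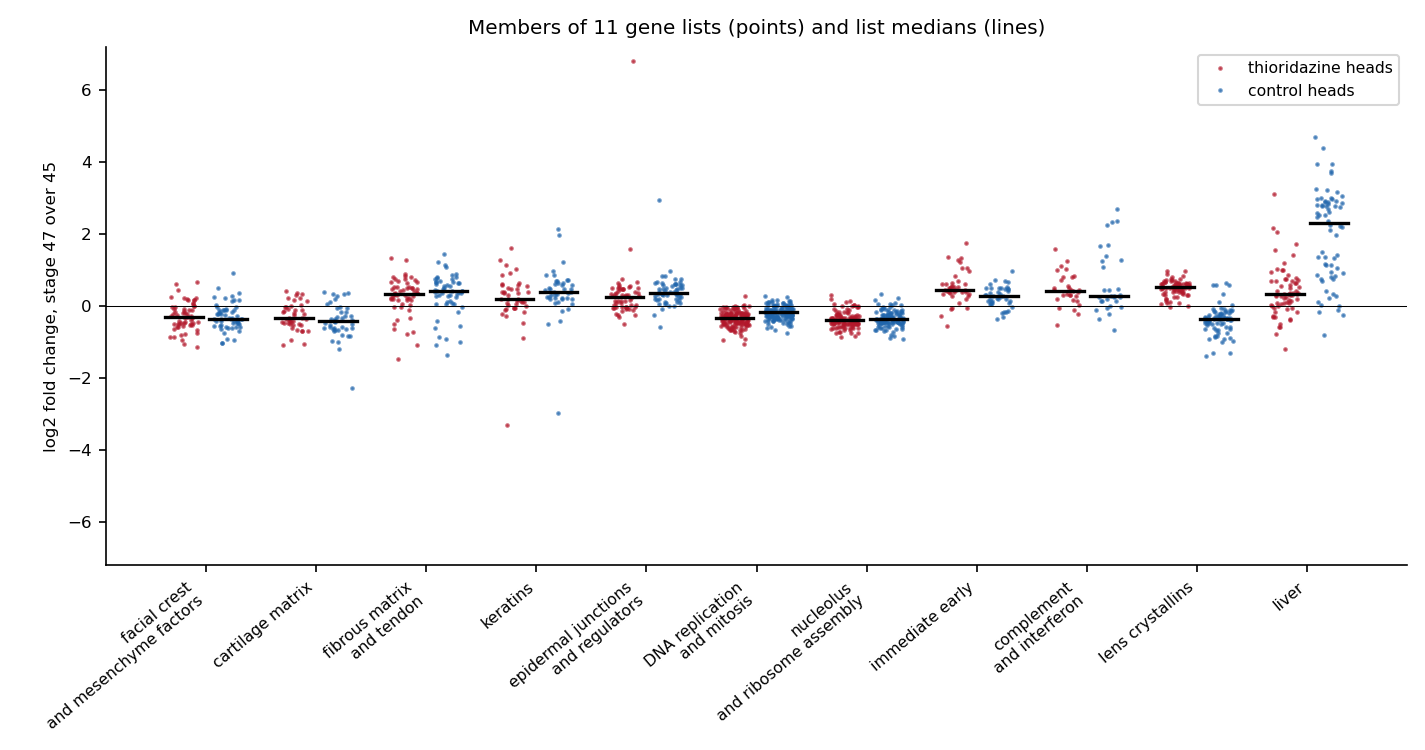
Log2 fold change from stage 45 to stage 47 of each tested member of 11 lists in thioridazine heads (red, left of each pair) and in control heads (blue, right), with the list median as a line. The medians lie on the same side of 0 in both for 10 of the lists, and for lens crystallins they are 0.52 in thioridazine and -0.36 in control heads. The 11 lists were picked for display. Medians of opposite sign also occurred among lists not shown, such as phototransduction (0.15 in thioridazine and -0.25 in control heads) and lens fibre genes (0.01 and -0.63).

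A few further genes moved in treated heads with a smaller value in controls, none of them passing for the difference. elf3.S rose by 0.75 in treated heads and had 0.05 in controls (63.1, 53.5 and 63.9 CPM at stage 47, against 54.4, 57.0 and 63.1 CPM at stage 45). ch25h.L had 1.57 in treated and 0.10 in control heads, tnfaip3.S 0.99 and -0.01, tmprss2.3.L, a serine protease, 1.95 and 0.76, and mki67.S -0.58 and -0.02. These pairs were picked for their contrast after their values were seen, so they stand as a description.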

How the data were processed

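Total RNA of whole heads was made into unstranded TruSeq v2 libraries and read as 100-base single-end reads, as the labels' protocols state. Each deposited table lists 1 raw, unnormalized count for every gene, obtained by the authors from those reads. Trimmomatic, HISAT2, HTSeq and DESeq2 appear in the submitters' processing notes. Tool versions, build, annotation and the treatment of multi-mapped reads were not given in the sources used here. Reads of near-identical copies (homeologs, keratins, crystallins, astacins) may therefore be split or lost, and reads of antisense partners cannot be told apart. Numeric gene identifiers were matched to the RefSeq gene table of Xenopus_laevis_v10.1 (33597 of 37018 had an entry, 10508 of them with a placeholder name), which served for names only. Windows line ends in 3 files were removed.

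The count analysis used edgeR 4.0.16 under R 4.3.3 (TMM scaling, filterByExpr, robust quasi-likelihood fit, quasi-likelihood F-test), with all 12 libraries in a single fit, a coefficient per group and 3 contrasts. The Benjamini-Hochberg adjustment ran over all genes tested in a contrast, with a threshold of 0.05. Code was tested on simulated data first. A list is described by its calls and its median log2 fold change. Members and lists were chosen with earlier results of these data known, and 4 lists were added after values had been seen. Named genes were the 15 largest called rises and 15 largest called falls among named genes that reached a mean of 1 CPM at either stage and whose 3 and 3 libraries did not overlap. To these came, for lists with at least 3 calls, the 4 with the smallest p, for other lists the 1 with the smallest p, the 5 with the smallest p for the difference from controls, and col2a1, col10a1, sox9, mbp, rho, mcm2, ccnb1, col1a1, rag1 and mmp13 whatever their values. A few genes that these rules pick are not reported here. No gene with the plain symbol ccnb1 was among the genes tested. The cyclin B1 genes ccnb1.2.L and ccnb1.2.S were tested under their own symbols (log2 fold changes -0.56 and -0.71). Both copies of col10a1 had too few counts to be tested. Further genes were named after their values were seen, the second copies, twist1, barx1, other list members and genes in no list among them. Alternatives were RLE and upper-quartile scaling, other filters, a fit of the groups compared alone, a test against a 1.2-fold change, summed homeologs, the replicate number as a block, DESeq2 1.42.0 and leaving out each library.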

Additional observations from a re-analysis of the deposited data

How the results depend on the processing

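Calls in treated heads numbered 211 in a test against a 1.2-fold change, 1975 with DESeq2 and 1127 to 1429 under the other scalings, filters, summed homeologs and the fit of treated groups alone. They numbered 392 to 748 with 1 treated library left out. In controls these were 259 against 1.2-fold, 2325 with DESeq2, 660 in a fit of control groups alone and 429 to 1437 with 1 library left out. For the difference in growth, every edgeR fit gave 0 and DESeq2 gave 4. The labels do not say whether replicate numbers pair the stages, and the correlations do not settle it. Deviations of treated libraries with the same number correlated at 0.562, 0.04 and 0.087, and of controls at 0.181, 0.014 and 0.352. In treated heads, replicate 1 of stage 47 correlated best with its own number, replicate 2 with number 3 (0.214) and replicate 3 with number 2 (0.136). Among controls, replicates 1 and 3 of stage 47 correlated best with their own numbers and replicate 2 with number 1 (0.059). With the number as a replicate block, 2704 genes were called in treated and 3068 in control heads. Of 119 named genes called in treated heads, 65 were called without each library and 54 in every alternative, and none reversed. Uncalled values near 0 reversed. rho.S was -0.0268 without replicate 2 of stage 47 and -0.0032 without replicate 2 and -0.0746 without replicate 3 of stage 45, over a range of -0.0746 to 0.207 with 1 library left out. mcm2.S was 0.0049 under upper-quartile scaling, 0.0411 without replicate 1 of stage 47 and 0.0189 without replicate 3 of stage 45, over a range of -0.111 to 0.0411. The medians of 5 lists near 0 changed sign under upper-quartile scaling, from -0.03 to 0.0084 for heat shock, -0.04 to 0.001 for hypertrophic cartilage and bone, -0.02 to 0.02 for ionocytes, -0.02 to 0.02 for retinoic acid and -0.02 to 0.02 for xenobiotic response. The cause of these shifts was not tested. Depth limits genes of few counts, such as pkp1.S and astl3b.1.L.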
